A study of Homo sapiens with 6 samples.

Results

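The HOX genes encode homeodomain transcription factors and lie in 4 clusters, HOXA, HOXB, HOXC and HOXD, on different chromosomes. All 39 protein-coding HOX genes of the annotation were taken by symbol from the 60240 genes of the count table. They were 11 of HOXA, 10 of HOXB, 9 of HOXC and 9 of HOXD. Membership did not depend on level or change, but the class was chosen with earlier results of these data known. RNA was sequenced from HCT116, an established human colorectal carcinoma line, as 3 libraries of untreated wild-type cells (WT) and 3 of cells in which LSD1 (gene KDM1A) had been knocked out by CRISPR (KO). The guide targeted exon 1 of the gene and individual clones were grown out after puromycin selection. The study's methods speak of biological replicates for its experiments in general. They and the labels do not give the number of clones behind the KO libraries or say whether these replicates were separate cultures, so the p-values measure the spread between these libraries, and effects of LSD1 loss and of cloning cannot be told apart. The comparison addressed whether removal of LSD1, an enzyme that takes methyl groups off lysine 4 of histone H3, altered the RNA of genes of this developmental class.

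Within each cluster the genes stand in the order of their paralog groups, numbered 1 to 13, and in embryos the low-numbered genes act towards the head and the high-numbered ones towards the tail. HOX proteins bind DNA with TALE homeodomain cofactors of the PBX and MEIS families. Trithorax complexes around KMT2A keep HOX genes active and Polycomb complexes keep them silent, and in the gut the ParaHox factor CDX2 is a known regulator of the clusters.

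The deposited table held between 25379279 and 29186963 counts per library, so 3 counts, used as the floor of detection (counting error only), stood for 0.103 to 0.118 CPM on the raw totals. The CPM values of genes are counts scaled to a common library total with TMM factors. KDM1A was at 223.1 ± 8.78 CPM in WT and 28.4 ± 1.30 CPM in KO (SD, n = 3), a log2 fold change of -2.97 (SE 0.15, q = 0.000451, edgeR quasi-likelihood test). It was the 1 gene of 17672 tested with q under 0.1. The first principal component, with 45.9% of the variance, spread the libraries by replicate number. Replicate 2 lay at 50.5 in WT and 58.0 in KO, replicate 3 at -6.91 and -12.2, and replicate 1 at -51.1 and -38.3. Same-numbered libraries deviated together from their group means, and a fit with the replicate number as a block called 282 genes. Of the 8 epithelial markers 7 were tested and VIL1 was at no more than 8 counts. Their summed level was 2189 to 4081 CPM in WT and 2599 to 3372 CPM in KO. The log2 fold change was above 0 for 2 of the 7 (KRT19 and CLDN4) and below 0 for 5. EPCAM was the 1 called with the block (log2 fold change -0.98, SE 0.20, q = 0.0788, edgeR), and DESeq2 gave q = 0.0516 without the block and 0.168 with it. Of the 6 fibroblast markers COL1A1 was higher in KO with the block (log2 fold change 0.52, SE 0.10, q = 0.0628), while COL1A2, COL3A1, DCN and LUM held no more than 3 counts in any library. Their summed level was 20.5 to 24.2 CPM in WT and 30.3 to 34.4 CPM in KO. The leukocyte, endothelial and neural lists summed to no more than 2.61 CPM in any library. The part of these markers in the HOX values was not tested.

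HOX transcripts were found in all 4 clusters, and the clusters differed in how many of their genes were expressed. In all, 26 of the 39 genes had a mean of at least 1 CPM over the 6 libraries, 10 of 11 in HOXA, 9 of 10 in HOXB, 6 of 9 in HOXC and 1 of 9 in HOXD. A mean of at least 10 CPM was reached by 12 genes, 4 of HOXA and 8 of HOXB. HOXA2 and HOXB1, genes of the anterior end that pattern the hindbrain, were the members of their clusters under 1 CPM. In HOXC these were HOXC4, HOXC11 and HOXC12, and in HOXD only HOXD8 was above 1 CPM. At most 3 counts in every library were seen for 3 genes. HOXB1 had no counts in any library, which allows a level of up to 0.118 CPM in the shallowest library, while HOXD12 and HOXD13, the latter a gene of digit and genital development, reached no more than 2 counts. The 10 other genes under 1 CPM ran from 0.0221 CPM for HOXD1 to 0.807 CPM for HOXC4 in the mean over the 6 libraries.

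**Figure D1:**
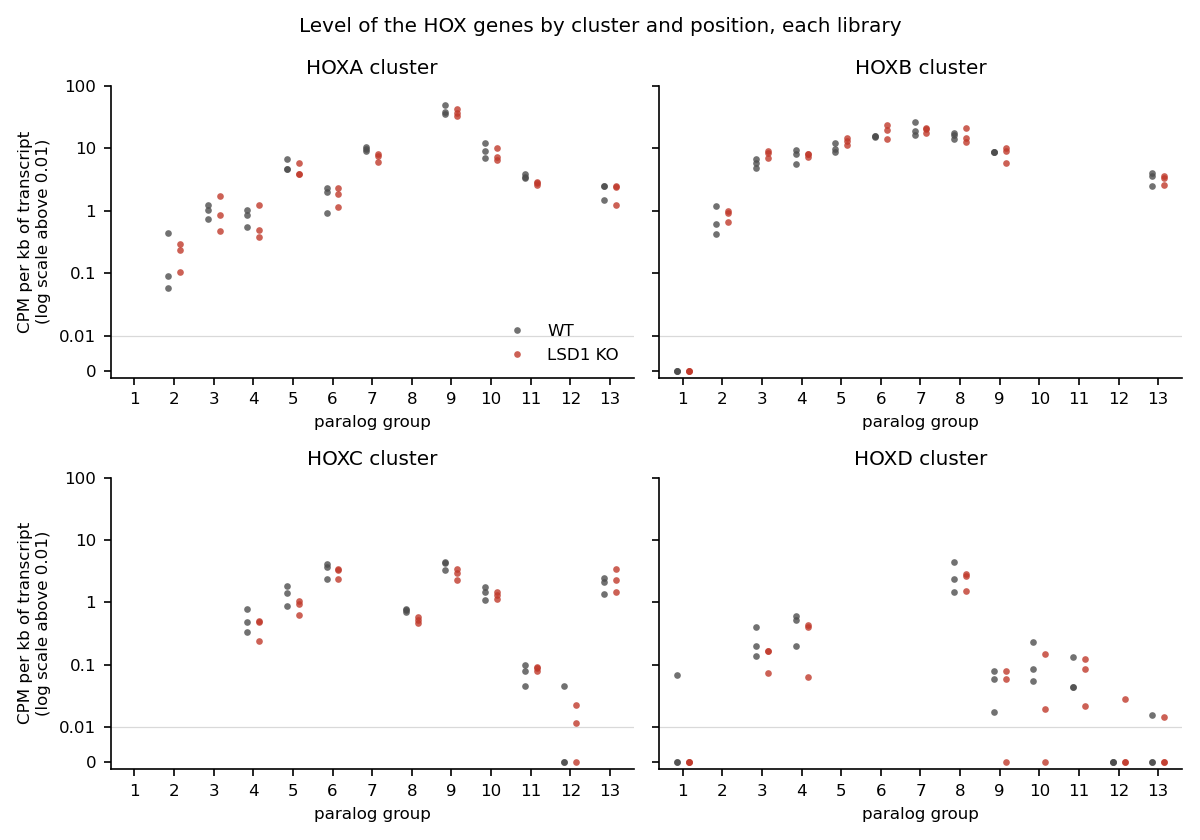
Level of 38 of the 39 HOX genes in each library, in CPM per kilobase of the canonical transcript (logarithmic above 0.01, linear below), against paralog group in the 4 clusters. Grey points are the 3 WT and red points the 3 KO libraries, and a position without points has no gene shown in that cluster. Levels are highest at HOXA9 and at HOXB6 to HOXB8, HOXB1 is at 0 in every library, and in HOXD only HOXD8 lies above 1 CPM per kilobase.

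Sequence upstream of the start is shown for 4 genes that span the range of levels: HOXA9, the most abundant HOX transcript, HOXA7, lower in every KO than in every WT library, HOXD8, the single HOXD gene above 1 CPM, and HOXB1, without reads. Each line gives the 250 bases before the RefSeq start on GRCh38.p14, 5′ to 3′ on the gene's strand, with CpG dinucleotides in capitals.
HOXA9, chr7:27165538-27165787, minus strand: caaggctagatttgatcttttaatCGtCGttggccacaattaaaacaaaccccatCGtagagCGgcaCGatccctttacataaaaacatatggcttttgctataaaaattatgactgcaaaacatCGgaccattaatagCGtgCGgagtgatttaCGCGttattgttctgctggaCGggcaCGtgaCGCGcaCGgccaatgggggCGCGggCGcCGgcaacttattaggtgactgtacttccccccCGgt
HOXA7, chr7:27156676-27156925, minus strand: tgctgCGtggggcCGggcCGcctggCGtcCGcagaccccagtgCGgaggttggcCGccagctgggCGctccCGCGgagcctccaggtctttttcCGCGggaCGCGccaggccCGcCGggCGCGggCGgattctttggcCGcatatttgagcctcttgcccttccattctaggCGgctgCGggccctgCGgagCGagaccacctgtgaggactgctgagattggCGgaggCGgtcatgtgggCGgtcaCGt
HOXD8, chr2:176129455-176129704, plus strand: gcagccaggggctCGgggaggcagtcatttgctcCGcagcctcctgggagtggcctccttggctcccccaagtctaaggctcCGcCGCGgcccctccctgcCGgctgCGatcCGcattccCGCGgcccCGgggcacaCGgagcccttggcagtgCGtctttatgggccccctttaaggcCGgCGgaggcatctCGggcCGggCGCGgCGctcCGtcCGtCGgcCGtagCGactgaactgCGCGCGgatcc
HOXB1, chr17:48531012-48531261, minus strand: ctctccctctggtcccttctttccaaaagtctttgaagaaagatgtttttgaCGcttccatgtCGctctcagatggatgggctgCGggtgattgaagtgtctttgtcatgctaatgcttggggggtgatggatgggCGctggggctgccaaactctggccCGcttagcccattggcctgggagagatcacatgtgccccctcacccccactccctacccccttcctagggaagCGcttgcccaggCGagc
These stretches hold 20, 28, 28 and 7 CpG dinucleotides. RefSeq windows of 300 bases, from 250 before to 50 after a start, were matched for 20 of the 39 genes by symbol, with 27 windows in all. Their median was 22 CpG dinucleotides, against 14 over all 35116 windows. HOXA3 alone has 7 of the windows, and HOXC4 and HOXC5 share 1. With the median taken for each gene first, the 10 genes of at least 1 CPM had 13 to 44 CpG dinucleotides (median 25). The 10 genes under 1 CPM had 4 to 36 (median 21), so that the ranges overlapped. HOXB1 was the only HOXB gene with a window, so the expressed HOXB genes are not in this comparison. The window of HOXC4 and HOXC5 counts on both sides. The letters TATAAA, searched on both strands, were found in 5 of the 27 HOX windows (18.5%), among them that of HOXA9, and in 11.5% of all windows.

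Levels of different genes were set side by side as CPM per kilobase of 1 canonical transcript per gene. Other transcripts of a gene can differ in length, so the order depends on this choice. HOXA9 came first with 39.2, and its lowest library (33.3) lay above the highest library of HOXB7, the next gene (27.0). HOXA9 acts in posterior axial patterning and in blood progenitors. HOXB7 (20.3), HOXB6 (17.6) and HOXB8 (16.2) followed, and the ranges of their libraries overlapped. HOXB5 (11.7), HOXA10 (8.73), HOXB9 (8.56), HOXA7 (8.55), HOXB4 (7.89) and HOXB3 (7.03) came next, each overlapping its neighbours in the order. The 16 other genes of at least 1 CPM ran from 4.99 for HOXA5 to 0.641 for HOXC8. The highest genes of HOXC and HOXD on this scale were HOXC9 with 3.43 and HOXD8 with 2.53.

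Summed over its protein-coding genes, HOXA and HOXC were lower in KO in all 3 same-numbered pairs, while HOXB and HOXD were higher in 2 pairs and lower in replicate 2. HOXA, on chromosome 7 (27092993 to 27200091), summed to 142.5, 198.7 and 161.4 CPM in the WT and to 130.3, 176.0 and 139.5 CPM in the KO libraries. HOXB, on chromosome 17 (48528526 to 48728750), summed to 164.1, 199.8 and 170.1 CPM in WT and 216.0, 176.2 and 193.4 CPM in KO. These clusters held 42.1% and 49.7% of all HOX CPM, with HOXA9 alone giving 51.2% of HOXA and no HOXB gene more than the 18.9% of HOXB8. HOXC, on chromosome 12 (53938831 to 54056030), was at 24.3 ± 3.56 CPM in WT and 21.1 ± 3.80 CPM in KO (SD, n = 3). HOXD, on chromosome 2 (176087487 to 176190907), was at 8.81 ± 4.58 CPM in WT and 7.11 ± 1.95 CPM in KO (SD, n = 3), of which HOXD8 gave 83.3%. On the log2 scale KO differed from WT by -0.17 for HOXA, 0.13 for HOXB, -0.20 for HOXC and -0.31 for HOXD. Each was less than the unpaired SD between libraries of 0.235, 0.149, 0.230 and 0.625, which takes in differences shared by same-numbered libraries. On raw totals the difference exceeded the SD of that scale in HOXA (-0.20 against 0.178) and HOXC (-0.23 against 0.174). Per kilobase it did so in HOXC (-0.24 against 0.219). The pairs of replicates 1, 2 and 3 differed by -0.13, -0.18 and -0.21 in HOXA and by -0.13, -0.14 and -0.35 in HOXC. In HOXB they differed by 0.40, -0.18 and 0.19 and in HOXD by 0.03, -0.75 and 0.07, and the groups overlapped in every cluster. A sum over chosen genes was given no test. The sum over all 39 genes was 378.6 ± 55.6 CPM in WT and 372.0 ± 13.1 CPM in KO (SD, n = 3).

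**Figure D2:**
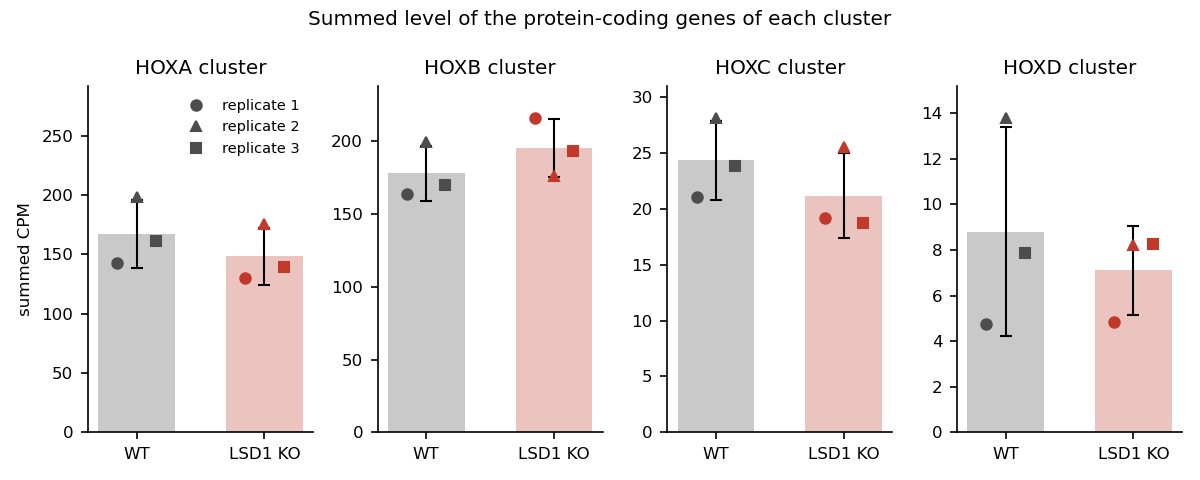
Summed CPM of the protein-coding genes of each cluster in WT and KO. Bars are means, error bars SD (n = 3) and symbols the single libraries by replicate number, and each cluster has its own axis from 0. The KO libraries overlap the WT libraries in all 4 clusters, and replicate 2 is the highest library of both groups in HOXA and HOXC.

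Of the 39 genes 30 could be tested, 11 of HOXA, 9 of HOXB, 7 of HOXC and 3 of HOXD (76.9%, against 69.1% of the protein-coding genes in the table), while HOXB1, HOXC11, HOXC12, HOXD1 and HOXD9 to HOXD13 were below the filter on low counts. None of the 30 reached q under 0.1 in the edgeR quasi-likelihood test, in which 0.00566% of all genes did, and 1 (HOXB3) had an unadjusted p under 0.05, as did 3.12% of all genes. The DESeq2 Wald test called 0 of 35 HOX genes at a background of 0.37%. With the replicate block 5 of 30 had an unadjusted p under 0.05 in edgeR, as did 13.4% of all genes. HOXB3 was the 1 of 30 called with the block, at a background of 1.6% (1.05% higher in KO). With the block DESeq2 called it too, 1 of 26 at a background of 3.96%. With the block and without replicate 2 of both groups, 4 of 29 were called at a background of 5.85%: HOXB3, HOXB5 and HOXB6 higher and HOXA7 lower in KO. The log2 fold change was above 0 for 11 genes and below 0 for 19, with TMM, RLE and upper-quartile scaling alike. Over all genes tested it was above 0 for 50.1% with TMM. Its median was -0.11 over the HOX genes and 0.00082 over all genes tested. The HOX median turned to 0.02, with 16 genes above 0, without WT replicate 2, and was -0.25 without WT replicate 1 and -0.24 without KO replicate 2. By cluster the median was -0.13 in HOXA, 0.02 in HOXB, -0.40 in HOXC and -0.57 in HOXD, and the positive values numbered 4 of 11, 6 of 9, 1 of 7 and 0 of 3. Among the 26 genes of at least 1 CPM the lowest value without the block was the -0.64 of HOXC5. Their standard errors in edgeR ran from 0.18 to 0.51 without the block and from 0.086 (HOXA9) to 0.43 (HOXB2) with it. These standard errors set what could be seen: the changes are not shown to be absent.

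**Figure D3:**
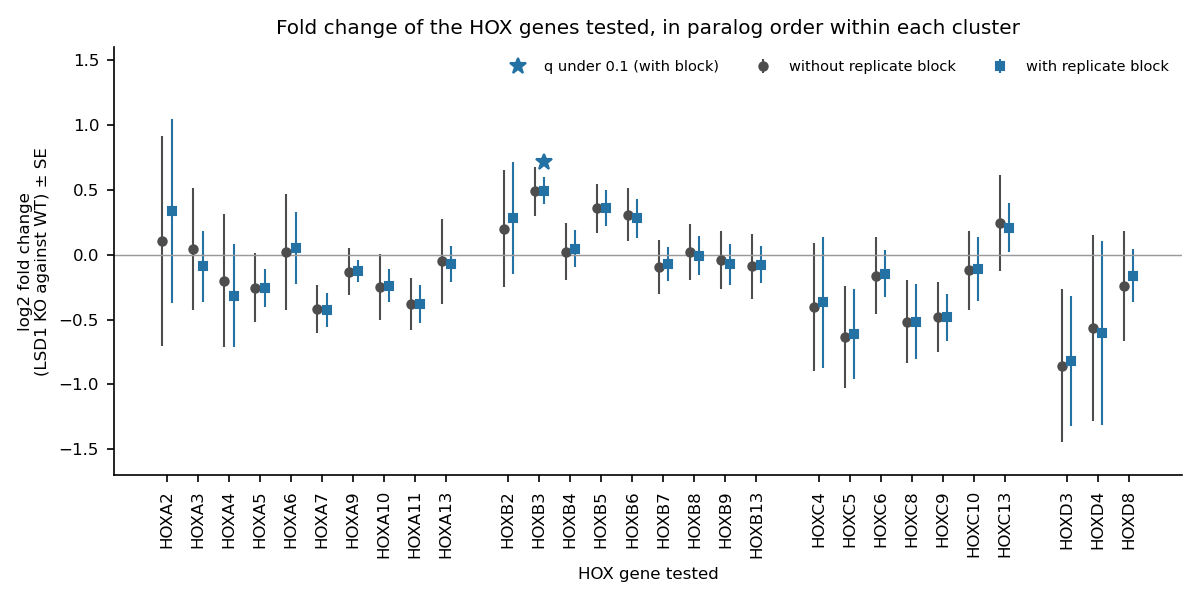
Log2 fold change (KO against WT) with SE for 29 of the 30 HOX genes tested, in paralog order within each cluster, from the edgeR fit without (grey circles) and with (blue squares) the replicate block. The star marks HOXB3, the 1 gene with q under 0.1 with the block, and no gene shown is below that threshold without it.

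HOXB3, which acts in hindbrain and pharyngeal patterning, was higher in every KO than in every WT library. It was at 16.4, 19.3 and 22.4 CPM in WT and 23.4, 28.0 and 29.99 CPM in KO. Its log2 fold change was 0.49 (SE 0.19, q = 0.999, edgeR quasi-likelihood test), and 0.49 (SE 0.10, q = 0.0915) with the block. The same-numbered pairs differed by 0.52, 0.54 and 0.42, all towards KO. With the block and without replicate 1 or replicate 3 of both groups q was 0.144 and 0.383, and without replicate 2 it was 0.0422. Of the HOXB3 transcript sequence 5.35% of 31-base words also occur in HOXB6 transcripts, and 15.4% of those of HOXB6 occur in HOXB3.

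Besides HOXB3, the groups did not overlap for 3 genes, all lower in KO, so that 3 of 30 lay below and 1 of 30 above, at backgrounds of 3.51% and 4.23% of all genes tested. HOXA7, a gene of the trunk, was at 18.5, 21.0 and 19.7 CPM in WT and 15.6, 16.6 and 12.2 CPM in KO. Its log2 fold change was -0.42 (SE 0.18, q = 0.999, edgeR) without the block and -0.43 (SE 0.13, q = 0.214) with it. In transcripts of HOXA-AS3, on the other strand, 62.2% of its 31-base words occur in reverse, and the kit is not stated to keep strand, so reads of the overlap cannot be told apart. HOXA-AS3 was itself at 1.31 ± 0.340 CPM in WT and 1.20 ± 0.363 CPM in KO (SD, n = 3). HOXA11, a gene of the forearm and the uterus, was at 9.33, 10.4 and 9.08 CPM in WT and 7.37, 7.81 and 6.93 CPM in KO. Its log2 fold change was -0.38 (SE 0.20, q = 0.999, edgeR) without the block and -0.38 (SE 0.15, q = 0.315) with it. A like overlap with HOXA11-AS takes in 26.1% of its 31-base words. HOXC8, a gene of the thoracic region, was at 1.85, 1.93 and 1.69 CPM in WT and 1.43, 1.14 and 1.25 CPM in KO. Its counts ran from 31 to 51 per library. Its log2 fold change was -0.52 (SE 0.32, q = 0.999, edgeR) without the block and -0.52 (SE 0.29, q = 0.491) with it. None of the 3 passed the test with or without the block.

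**Figure D4:**
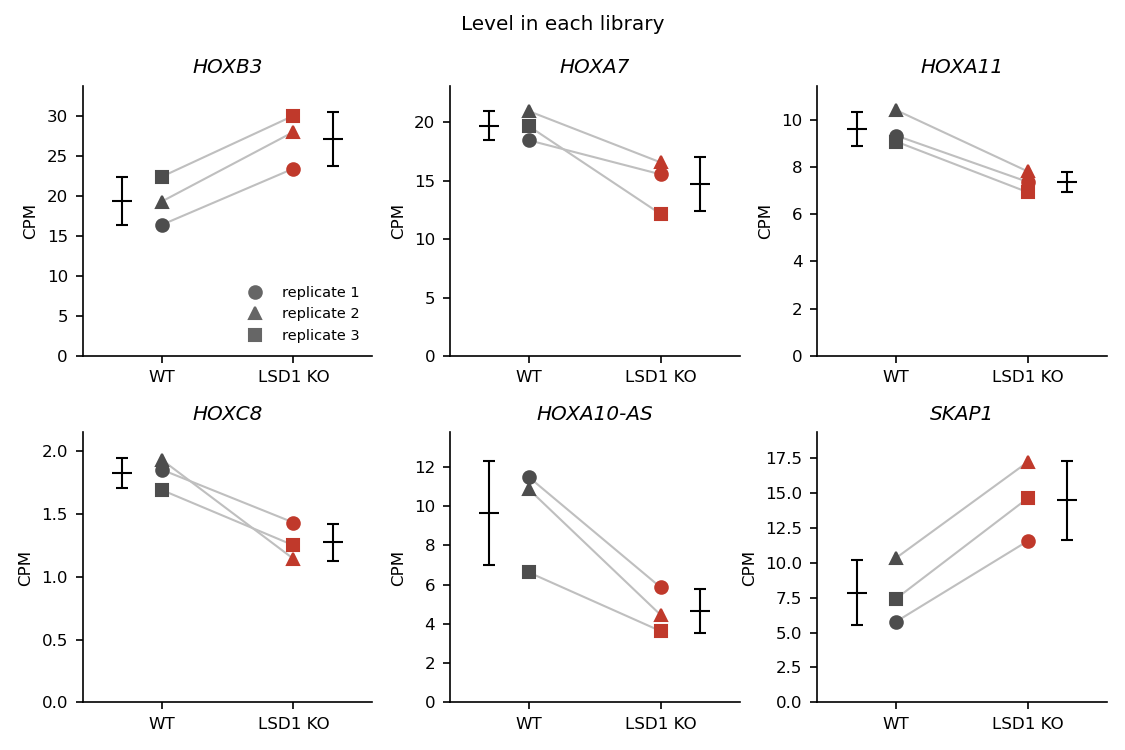
CPM in each library for the 4 HOX genes whose groups did not overlap, HOXB3, HOXA7, HOXA11 and HOXC8, and for the antisense RNA HOXA10-AS and the neighbouring gene SKAP1. Lines join libraries of the same replicate number, horizontal marks with error bars are mean and SD (n = 3), and axes start at 0. HOXB3 and SKAP1 are higher, and the others lower, in all 3 KO libraries.

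In the rest of HOXA the groups overlapped, and 8 of its 11 genes were highest in replicate 2 of both groups, which held for 13 of the 30 HOX genes and for 25.1% of all genes tested. Towards the anterior end HOXA3, needed for the thymus and parathyroid, was at 2.27, 3.71 and 3.08 CPM in WT and 1.47, 5.31 and 2.57 CPM in KO. HOXA4 was at 0.944, 1.44 and 1.72 CPM in WT and 0.644, 2.10 and 0.833 CPM in KO. For both replicate 2 was the highest KO library, and no order of the groups held in all 3 pairs. HOXA5, with roles in lung and gut, was at 7.90, 11.5 and 7.79 CPM in WT and 6.51, 9.69 and 6.59 CPM in KO. HOXA6 was at 2.30, 0.908 and 1.99 CPM in WT and 2.32, 1.14 and 1.82 CPM in KO, the 1 HOX gene lowest in replicate 2 of both groups. HOXA9 was at 73.0, 100.8 and 80.0 CPM in WT and 68.7, 87.9 and 75.3 CPM in KO. Its log2 fold change was -0.13 (SE 0.18) without the block and -0.12 (SE 0.086, q = 0.583, edgeR) with it. HOXA5 and HOXA9 were lower in KO in each pair of the same number, but replicate 2 of KO exceeded other WT libraries. HOXA10, which acts in the uterus, was at 18.1, 31.5 and 22.8 CPM in WT and 18.8, 25.5 and 16.5 CPM in KO. HOXA13, a gene of the hindgut and digits, was at 7.44, 12.6 and 12.5 CPM in WT and 6.33, 12.7 and 12.3 CPM in KO. HOXA13 levels were low in replicate 1 of both groups and close between groups.

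In HOXB the genes next to HOXB3 gave mixed values. HOXB2 was at 1.06, 2.01 and 0.729 CPM in WT and 1.54, 1.11 and 1.70 CPM in KO. HOXB4, which acts in blood stem cells, was at 11.5, 19.2 and 16.4 CPM in WT and 14.6, 16.5 and 16.6 CPM in KO. HOXB5, a gene of gut innervation, was at 16.5, 22.5 and 18.2 CPM in WT and 27.2, 24.6 and 21.5 CPM in KO. HOXB5 was higher in KO in all 3 pairs, with a log2 fold change of 0.36 (SE 0.14, q = 0.309) in the edgeR fit with the block. HOXB6 was at 26.5, 26.9 and 25.5 CPM in WT and 40.0, 23.9 and 33.7 CPM in KO. HOXB7 was at 26.2, 36.8 and 22.6 CPM in WT and 28.5, 27.6 and 24.0 CPM in KO. For HOXB6 the WT libraries agreed closely and the KO libraries lay on both sides of them. HOXB8 was at 35.9, 38.2 and 30.9 CPM in WT and 46.3, 28.1 and 31.7 CPM in KO. HOXB9 was at 22.4, 22.6 and 22.4 CPM in WT and 26.4, 15.2 and 23.9 CPM in KO. From HOXB6 to HOXB9 each KO value of replicate 2 was below its WT partner, while those of replicates 1 and 3 were above theirs. HOXB13, known from the prostate and hindgut and set apart from the rest of the cluster, was at 7.71, 12.4 and 11.0 CPM in WT and 7.97, 11.1 and 10.2 CPM in KO.

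In HOXC 6 of the 7 genes tested had a log2 fold change below 0, and none passed the test. Over all genes tested 50.1% were above 0. HOXC4, HOXC5 and HOXC6 have the same annotated start. Of the 31-base words of HOXC4 16.6% occur in HOXC6 transcripts, so these genes were not measured independently. HOXC9, a gene of thoracic identity in the spinal cord, was at 4.84, 6.59 and 6.26 CPM in WT and 3.40, 4.97 and 4.32 CPM in KO, lower in each pair, with a log2 fold change of -0.48 (SE 0.18, q = 0.301) in the edgeR fit with the block. HOXC5 was at 1.398, 2.95 and 2.32 CPM in WT and 1.72, 1.55 and 1.02 CPM in KO. Of its 31-base words 66.8% are shared with another transcript of the same strand, so its counts are uncertain. Other members share words too, among them HOXA4 (30.2%) and HOXA9 (13.8%) with other genes in the same direction. In reverse HOXA6 shares 35.7% and HOXD8 22.6%. HOXC6 was at 6.76, 6.13 and 3.94 CPM in WT and 5.44, 5.75 and 3.86 CPM in KO. HOXC10, a lumbar gene, was at 2.19, 3.44 and 2.88 CPM in WT and 2.65, 2.95 and 2.23 CPM in KO. HOXC13, a gene of hair and nails, was at 3.25, 5.79 and 5.07 CPM in WT and 3.43, 7.99 and 5.30 CPM in KO, the single HOXC gene above 0 and higher in KO in each pair. HOXD8 was at 3.85, 11.5 and 6.20 CPM in WT and 3.93, 7.41 and 6.89 CPM in KO. Its log2 fold change was -0.24 (SE 0.42) without the block and -0.16 (SE 0.20, q = 0.783, edgeR) with it. Its WT libraries spanned all of the KO values, and replicate 2 was the 1 pair lower in KO. HOXA2, HOXC4, HOXD3 and HOXD4, tested but under 1 CPM, had log2 fold changes between -0.86 and 0.10, with no more than 41 counts in a library. Over all clusters 8 of 30 genes were lower in KO in all 3 pairs (17.5% of all genes tested were) and 3 of 30 were higher (18.8%).

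Among the noncoding RNAs of the clusters HOXA10-AS fell by 1.04 on the log2 scale with the block (SE 0.17, q = 0.0381, edgeR). It is read from the plus strand of chromosome 7 (27168899 to 27171915, GRCh38) across the 3′ part of HOXA10. It was at 11.5, 10.9 and 6.63 CPM in WT and 5.86, 4.46 and 3.63 CPM in KO, every KO library below every WT library. Without the block its log2 fold change was -1.05 (SE 0.30, q = 0.989, edgeR), and DESeq2 gave q = 0.219. Of its 31-base words 35.3% occur in reverse in HOXA10 transcripts and 57.6% in other genes in all, and reads of these stretches cannot be assigned to a strand. Of the 31-base words of HOXA9 11.8% occur in reverse in HOXA10-AS transcripts. HOXA10 and HOXA9 both overlapped between groups, as given above. HOXA10-AS was the 1 RNA called of 10 tested in this list with the block (1.6% of all genes were), and none was called without it (0.00566%). The list does not hold every noncoding RNA of the clusters. LINC03057, LINC02086, ENSG00000260597 and ENSG00000273046 were also tested, and none was called with or without the block. LINC03057, in HOXB, was more abundant than HOXA10-AS, at 21.5 ± 6.16 CPM in WT and 18.3 ± 3.17 CPM in KO (SD, n = 3). HOTAIR and HOTTIP, long noncoding RNAs of the posterior HOXC and HOXA ends, held no more than 9 counts in any library.

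SKAP1, an adaptor gene of T cells that lies beyond HOXB1 on chromosome 17, was the 1 of 9 tested neighbours of the clusters called with the block, at a background of 1.6%, and none was called without it, at 0.00566%. It was at 5.78, 10.3 and 7.42 CPM in WT and 11.6, 17.2 and 14.6 CPM in KO, without overlap. Its log2 fold change was 0.90 (SE 0.14, q = 0.0330) in the edgeR fit with the block and 0.88 (SE 0.27, q = 0.999) without it, and with the block but without replicate 3 q was 0.138. ATP5MC2, a subunit of ATP synthase and the most abundant neighbour, was at 117.5 ± 27.7 CPM in WT and 140.4 ± 39.3 CPM in KO (SD, n = 3).

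The genes that act with or upstream of HOX proteins gave no call in the edgeR fits with or without the block. Of the TALE cofactors 7 were tested, of which PBX2 was at 59.6 ± 6.53 CPM in WT and 56.1 ± 6.91 CPM in KO (SD, n = 3). Of 14 upstream regulators, the Polycomb and trithorax genes among them, 13 were tested, of which PSIP1, a chromatin reader that binds KMT2A, was at 218 ± 13.7 CPM in WT and 227 ± 31.5 CPM in KO (SD, n = 3). The median log2 fold change was 0.03 over the cofactors and 0.06 over the regulators. Of the ParaHox genes CDX2 was at 12.2, 21.0 and 17.0 CPM in WT and 13.5, 19.0 and 17.5 CPM in KO. Its groups overlapped, with a log2 fold change of -0.01 (SE 0.24) without the block and 0.013 (SE 0.12) with it. PDX1 was the other ParaHox gene tested, and CDX1, CDX4, GSX1 and GSX2 had no counts in any library.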

How the data were processed

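Polyadenylated RNA of HCT116 cells was sequenced on an Illumina instrument after NEBNext Ultra library preparation, as 3 WT and 3 LSD1 KO libraries grouped by sample title. The submitters' processing notes name FastQC, Trimmomatic 0.39 and Salmon 1.4.0 with GRCh38, and the study's methods GENCODE release 36. The authors deposited 1 table of Salmon-derived expected counts per gene, not normalized, and how transcripts were summed to genes is not given in the sources used here. The deposited values were whole numbers and were used as given. Genes were filtered with filterByExpr by group, and groups were compared with edgeR 4.0.16 (TMM, quasi-likelihood F test, Benjamini-Hochberg over 17672 genes, called at q under 0.1, R 4.3.3). Where the study used DESeq2, the Wald test of DESeq2 1.42.0 was an alternative. The fits were run on simulated counts with known changes, a replicate effect and a single fixed dispersion. This check asked only for the right sign and a small median error of the fold changes. It does not give the rate of false or missed calls in these data. CPM divides by the TMM-scaled library total, and CPM per kilobase further by the canonical transcript length of a later GENCODE release. Shared 31-base words were counted in the same transcripts.

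Same-numbered libraries deviated together (Pearson's r across 17672 genes 0.553, 0.553 and 0.404, other pairs -0.516 to 0.0454), so by the rule used the numbers pair the samples. Deviations from a group mean cancel within the group. Positive values for same-numbered pairs therefore push the others down, and the contrast is not independent support. What a number stands for is not given in the labels. The fit without the block was kept as the main one, and the block fit is printed where it changes a call and for some other genes. Alternatives were other scalings, 2 other count filters, DESeq2, the block, a stricter q, and each library or numbered pair left out. The 39 members, 93 companion and marker genes (89 with a row) and tests were chosen with earlier results of these data known. Values in every library are given for HOX genes of at least 1 CPM, called with or without the block, or with groups that do not overlap, except for 1 gene that is counted in the totals but not reported here. From the companion lists the called genes and the most abundant gene are named. HOTAIR, HOTTIP, HOXA-AS3, PDX1, the ParaHox genes without counts and the noncoding RNAs outside the lists were added after their values were seen. Positions and promoters are from RefSeq on GRCh38.p14.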

Additional observations from a re-analysis of the deposited data

How the results depend on the processing

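Across all genes the 1 call became 114 with every gene that had counts kept, 95 with DESeq2, 282 with the replicate block, 593 with the block in DESeq2, and 428, 1055 and 198 with the block and without replicate 1, 2 or 3 of both groups. It ran from 1 to 26 with single libraries or replicate 2 left out. The HOX calls, 0 without the block, were 1 with it and 1 with it in DESeq2 (HOXB3 in both), 4 with it and without replicate 2 (HOXB3, HOXB5 and HOXB6 higher and HOXA7 lower), and 0 in the others. Apart from HOXB3, HOXA10-AS, SKAP1, EPCAM and COL1A1, the block over all libraries changed no call of a gene named here. The 3 genes at the floor became 1 when 0 counts in every library were asked for and 13 at a mean under 1 CPM. The tested HOX genes were 38 with every gene kept and 27 with at least 10 counts in every library. The cluster sums moved by less than their pooled SD with raw totals, per kilobase and with each library left out. The last gave log2 differences of -0.31 to -0.03 for HOXA, 0.05 to 0.22 for HOXB, -0.36 to -0.09 for HOXC and -0.61 to 0.17 for HOXD, so that the sign for HOXD rested on WT replicate 2.

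The log2 fold change kept its sign in every alternative for 13 of the 30 HOX genes tested, HOXA7, HOXA11 and HOXB3 among them, and changed it in at least 1 for 17, none of them called in any fit. With libraries left out it ran from -0.34 to 1.49 for HOXA2, -0.60 to 0.38 for HOXA3, -0.91 to 0.10 for HOXA4, -0.29 to 0.28 for HOXA6, -0.25 to 0.00998 for HOXA9, -0.26 to 0.21 for HOXA13, -0.083 to 0.84 for HOXB2, -0.16 to 0.18 for HOXB4, -0.24 to 0.13 for HOXB7, -0.22 to 0.21 for HOXB8, -0.20 to 0.15 for HOXB9, -0.26 to 0.053 for HOXB13, -0.28 to 0.034 for HOXC10, -0.13 to 0.50 for HOXC13, -0.92 to 0.018 for HOXD4, -0.54 to 0.27 for HOXD8, -0.0098 to 0.46 for ATP5MC2, -0.068 to 0.15 for PSIP1 and -0.19 to 0.18 for CDX2. With the block it turned to -0.091 for HOXA3, -0.0078 for HOXB8 and 0.013 for CDX2, and with the block in DESeq2 to -0.11, -0.013 and 0.0090. With the block and without replicate 1 it was -0.096 for HOXB4 and -0.20 for HOXB8. Without replicate 2 it was -0.45 for HOXA3, -0.074 for HOXA6, 0.088 for HOXB7, 0.15 for HOXB9, 0.14 for HOXD4, 0.078 for HOXD8, -0.018 for PSIP1 and 0.075 for CDX2. Without replicate 3 it was -0.47 for HOXA2, -0.0082 for HOXA3, 0.053 for HOXA4, -0.17 for HOXB2, -0.030 for HOXB8, 0.28 for HOXC4, 0.021 for HOXC10 and 0.0023 for CDX2. The cause was not tested. Members under 1 CPM rested on no more than 41 counts per library, which limits what could be seen for them.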
